A study of Mus musculus with 2 samples.

Results

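Deep gene-body sites are the interacting sites of the Pou5f1 enhancer that lay inside a gene and away from every transcript start. A site was taken as one when its middle fell inside a gene of any type in the GENCODE annotation of mm9 and more than 5 kb from every annotated transcript start. In the authors' list, 351 of 1009 sites (34.8%) met this rule. Another 330 sites (32.7%) lay within 5 kb of a start, and 328 sites (32.5%) were distal and intergenic. Of the 603 sites with their middle inside a gene, the other 252 were close to a start. The sites came from sonication-based 4C-Seq, in which cross-linked chromatin is broken by sound, ligated and amplified from a bait, so that the DNA joined to the bait can be sequenced. The bait was an upstream enhancer element of Pou5f1. Both samples, replicates 1 and 2 of a single group, were E14 mouse embryonic stem (ES) cells grown with LIF and cross-linked with formaldehyde, and no other cell type or treatment was compared. The list pools both replicates and holds positions alone, so read counts and sequencing depth per site are unknown, and no spread between replicates can be given.

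Pou5f1 encodes Oct4, a POU-domain transcription factor needed to keep ES cells pluripotent. Enhancers can touch distant DNA through folding of the chromatin fibre, and 4C-Seq lists the DNA found near a single chosen element across the genome. Introns make up most of the length of long genes and can hold enhancers, and RNA polymerase passes through them when the gene is transcribed.

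The sites nearest to the limit of the rule were alike in distance. Just inside it lay a site in Git2 (a GTPase-activating protein for Arf) at 5002 bp from the nearest start, a site in Vav2 at 5027 bp and a site in the non-coding gene Gm11681 at 5145 bp. Just outside it lay sites in Rptor (a subunit of the mTORC1 kinase complex) at 4950 bp, Lrrn2 at 4955 bp and Fyttd1 at 4983 bp.

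The deep gene-body sites were short. They were 20 to 231 bp wide with a median of 20 bp, the length of the end tags that the authors aligned, and 248 of 351 (70.7%) were exactly 20 bp. Kalrn, which encodes a guanine nucleotide exchange factor of neurons and has many exons, held more of them than any other gene, namely 5. The sequences of 4 of these are shown because they are the sites of the gene with the highest number, with the site in capitals and 40 bp of the reference genome on either side. The other Kalrn site overlapped an exon and is left out. All sequences are those of the forward strand of mm9, and none comes from the reads of the cells, whose strain may differ from the reference.
Kalrn, chr16:34050756-34050856: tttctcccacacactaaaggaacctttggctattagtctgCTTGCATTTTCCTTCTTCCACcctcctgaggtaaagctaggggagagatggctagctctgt
Kalrn, chr16:34257668-34257768: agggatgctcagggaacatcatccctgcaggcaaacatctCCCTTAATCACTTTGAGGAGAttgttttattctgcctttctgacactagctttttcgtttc
Kalrn, chr16:34347830-34347929: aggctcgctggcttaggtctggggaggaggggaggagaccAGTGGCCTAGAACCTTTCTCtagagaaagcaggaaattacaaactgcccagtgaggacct
Kalrn, chr16:34462656-34462755: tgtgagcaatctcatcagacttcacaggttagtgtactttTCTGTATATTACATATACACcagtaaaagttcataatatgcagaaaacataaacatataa

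On chromosome 17, which carries Pou5f1, the gene with the most deep gene-body sites was the long non-coding gene Gm16724 with 4. Their sequences are shown in the same form, with the site in capitals.
Gm16724, chr17:71245067-71245166: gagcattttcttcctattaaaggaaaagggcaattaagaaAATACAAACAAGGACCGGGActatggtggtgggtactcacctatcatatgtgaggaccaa
Gm16724, chr17:71249912-71250011: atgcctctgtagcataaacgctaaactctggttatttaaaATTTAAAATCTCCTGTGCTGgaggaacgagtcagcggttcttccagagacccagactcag
Gm16724, chr17:71414452-71414553: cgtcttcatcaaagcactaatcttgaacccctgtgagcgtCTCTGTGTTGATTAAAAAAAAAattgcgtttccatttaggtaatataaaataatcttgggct
Gm16724, chr17:71430918-71431017: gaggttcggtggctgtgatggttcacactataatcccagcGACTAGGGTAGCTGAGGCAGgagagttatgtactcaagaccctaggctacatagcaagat

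Few sites lay beside an octamer (1.42%), and 300-bp windows of the deep gene-body bases held it about as often (1.63%). This sequence, ATGCAAAT, which Oct4 and other POU proteins bind, was present on either strand within the 300 bp around 5 of the 351 sites. These are shown from 10 bp outside the site to 10 bp outside the octamer, and the capitals mark the octamer or its reverse complement. The site is therefore at the end of the sequence that lies far from the capitals.
Pik3c2b, chr1:134949610-134949771: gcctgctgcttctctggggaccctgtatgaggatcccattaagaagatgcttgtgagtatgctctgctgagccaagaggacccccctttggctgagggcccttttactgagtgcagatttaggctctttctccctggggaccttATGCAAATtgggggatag
Kcnmb2, chr3:32010812-32010948: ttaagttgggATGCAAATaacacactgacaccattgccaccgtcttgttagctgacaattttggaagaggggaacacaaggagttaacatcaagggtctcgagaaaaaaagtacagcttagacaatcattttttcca
Zfp536, chr7:38526007-38526160: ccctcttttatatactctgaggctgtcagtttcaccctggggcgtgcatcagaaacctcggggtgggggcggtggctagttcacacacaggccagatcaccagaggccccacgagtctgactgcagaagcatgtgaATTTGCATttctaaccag
Rptor, chr11:119758433-119758516: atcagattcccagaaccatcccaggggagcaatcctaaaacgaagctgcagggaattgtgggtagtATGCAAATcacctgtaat
Pde10a, chr17:8816279-8816432: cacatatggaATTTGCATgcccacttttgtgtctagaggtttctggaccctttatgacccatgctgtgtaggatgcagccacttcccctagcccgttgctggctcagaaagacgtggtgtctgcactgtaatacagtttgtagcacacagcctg

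The sequence TCAAGGTCA, bound by the nuclear receptor Esrrb, was found around 6 sites. The 5 shown are in the same form, with the capitals marking this sequence or its reverse complement, and the remaining one lay in Chsy3.
Kcnmb2, chr3:32018952-32019060: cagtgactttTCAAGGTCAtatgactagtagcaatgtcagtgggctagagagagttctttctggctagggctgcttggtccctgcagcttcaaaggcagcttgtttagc
Tmco4, chr4:138578099-138578177: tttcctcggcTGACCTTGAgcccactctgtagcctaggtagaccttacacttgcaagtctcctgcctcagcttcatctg
Auts2, chr5:132579265-132579304: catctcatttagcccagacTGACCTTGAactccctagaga
Clstn2, chr9:97600859-97601020: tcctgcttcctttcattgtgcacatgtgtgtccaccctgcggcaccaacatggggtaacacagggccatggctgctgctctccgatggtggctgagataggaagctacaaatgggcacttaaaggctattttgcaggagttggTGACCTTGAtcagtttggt
Gm16724, chr17:71414433-71414523: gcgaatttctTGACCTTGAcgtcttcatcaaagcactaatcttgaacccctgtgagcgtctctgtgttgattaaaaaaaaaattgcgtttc

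The Auts2 sequence is short because the Esrrb sequence lay inside the 20-bp site itself. The sequence of this Auts2 site occurred 20 times in the reference, and that of the Clstn2 site shown occurred 2 times. The Gm16724 sequence is that of the third site of this gene shown above, with the Esrrb sequence to its left.

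The first comparison asked whether the enhancer's contacts were found deep in gene bodies more or less often than the DNA of the interacting regions gave. Joining sites at most 1 Mb apart, or 200 kb on chromosome 17, gave 47 regions covering 144.831 Mb, and all 47 held at least 1 deep gene-body site. Deep gene-body DNA made up 36.9% of the bases of these regions, against 34.8% of their sites (95% Wilson interval 31.9 to 37.8%, which covers counting error only). There were 6.56 sites per Mb of deep gene-body DNA and 7.20 sites per Mb of the other DNA of the regions. Over the 20 chromosomes as a whole, deep gene-body DNA made up 30.7% of the bases. The number of deep gene-body sites was above that given by the bases in 23 regions and below it in 24, with a median difference of -0.0047 sites (exact two-sided sign test over 47 regions, p = 1, adjusted p = 1). With protein-coding genes alone, 24 of 47 regions were above, and with regions joined at 500 kb (100 kb on chromosome 17), 41 of 80, so the direction of this small difference turned with the setting while neither passed the test.

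The regions with the largest gaps from their bases lay on both sides. They were picked after the values were seen, and no region was tested by itself. The region chr14:69889820-76823712 had 14 deep gene-body sites of 31, where its bases gave 8.21. A region of chromosome 5, chr5:120960722-127194115, had 18 of 39, where its bases gave 13.0, and chr2:162438156-168315179 had 18 of 48, where its bases gave 13.3. At the other end, chr4:132159092-141618278 had 12 of 63, where its bases gave 20.5, and chr11:112655168-121664255 had 17 of 71, where its bases gave 23.8. A region held 1 to 18 deep gene-body sites with a median of 6, and these were 6.67 to 77.8% of its sites, while deep gene-body DNA was 17.4 to 77.3% of its bases. Chromosome 5 held the most, with 48 deep gene-body sites of 105, followed by chromosomes 2 and 9 with 33 each and chromosome 17 with 26.

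**Figure D1:**
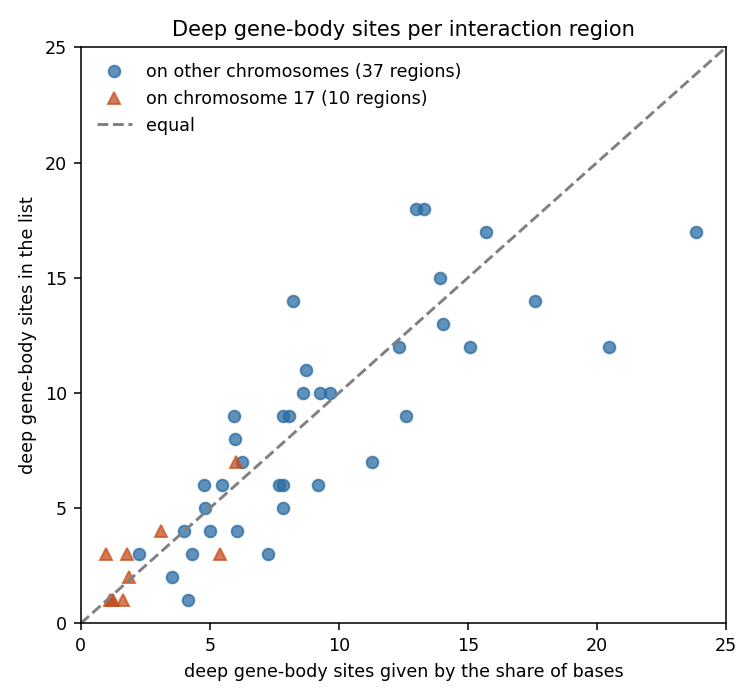
Number of deep gene-body sites of the list in each of the 47 interacting regions (vertical axis) against the number given by the region's sites and its share of deep gene-body bases (horizontal axis). Circles are the 37 regions on other chromosomes, triangles the 10 regions on chromosome 17, and the dashed line marks equal values; 23 regions lie above it and 24 below it.

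The genes with the most deep gene-body sites were long, and the 6 genes with 4 or 5 of them spanned 207.487 to 599.275 kb. The 351 sites lay in 266 genes, of which 250 were protein-coding, 8 were long intergenic non-coding genes and 8 gave other processed transcripts. A single site lay in 202 of these genes, 2 sites in 40, 3 sites in 18, 4 sites in 5 and 5 sites in Kalrn alone. The number given to a gene spread the deep gene-body sites of a region evenly over its deep gene-body bases. None of the 1685 genes with such bases was called as holding more than given after adjustment (0% called, exact one-sided binomial test with Benjamini-Hochberg adjustment, lowest adjusted p = 1). Regions held 1 to 18 of these sites with a median of 6, so only a strong excess in a gene could be called. The lack of calls therefore does not show an even spread. At an unadjusted p under 0.05 there were 30 of the 1685 genes, a share below 0.05. Some of these held a single site in few bases, such as Gm11681 with 0.154 kb of deep gene-body bases (exact binomial p = 0.000865).

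Kalrn (ENSMUSG00000061751.8, chr16:33974344-34573618, reverse strand) spans 599.275 kb, and its 5 sites were all the sites of the list within it, where its bases gave 2.45 (exact binomial p = 0.0784, adjusted p = 1). They were spread along the gene, 45.3, 10.2, 5.21, 14.006 and 5.70 kb from the nearest start in order of position. Counted on the longest transcript, they lay in intron 36, in an untranslated exon of a shorter transcript, in intron 11, in intron 5 and in intron 1 of 60 introns.

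Besides Gm16724, 4 genes held 4 sites each, and none of these 4 genes held any other site of the list. Mecom, which encodes a zinc-finger transcription factor, had its 4 in introns 2 and 3 of 8, where its bases gave 2.79. In Myo18b, a gene of an unconventional myosin, the 4 sites lay in introns 9, 18 and 39 of 43 and in a coding exon, where the bases gave 2.08. Wbscr17, of the family that adds N-acetylgalactosamine to proteins, had 4 in introns 1, 2 and 9 of 10, where its bases gave 2.67. Zfp536, another zinc-finger gene, had 1 site in each of introns 1 to 4 of its 5, where its bases gave 3.68. The sites were spread along these genes, at 19.7 to 95.8% of the length of Wbscr17 from its 5′ end and at 6.37 to 58.3% of that of Zfp536.

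Among the 18 genes with 3 sites, 4 had an unadjusted p under 0.05. The 18 genes were picked by their number of sites, which the test also uses. Pik3c2b (a class II phosphoinositide 3-kinase, 63.021 kb) had 3 where its bases gave 0.511 (exact binomial p = 0.0134, adjusted p = 1), at 7.04, 23.6 and 40.9 kb from its start. Tdrd12 (a tudor-domain protein of the piRNA pathway in germ cells, 68.648 kb) had 3 where its bases gave 0.567 (exact binomial p = 0.0162, adjusted p = 1). Prex1, an exchange factor for Rac, had 3 deep gene-body sites among 7 listed sites, where its bases gave 0.809. Dapk2, a calcium-regulated kinase linked to cell death, had 3 among 4 listed sites, where its bases gave 0.833. The unadjusted p of these 2 was 0.0447 and 0.0435 (exact binomial test, adjusted p = 1 for each).

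The other genes with 3 sites were given 1.14 to 4.35 by their bases. Auts2, the longest of them at 1106.01 kb, had 3 where its bases gave 3.82, and Clstn2, which encodes the cell-adhesion protein calsyntenin-2, had 3 where its bases gave 4.35. Exoc4 (a subunit of the exocyst) was given 3.12, Egfem1 2.99, Plxna4 (a receptor for semaphorins) 1.88, Atp2b2 (a calcium pump of the plasma membrane) 1.76 and Kcnmb2 (a subunit of a calcium-activated potassium channel) 1.4997. Thsd4, an extracellular matrix protein, was given 1.48, Srgap2, a GTPase-activating protein, 1.33, Lrch1 1.21 and the homeobox gene Cux2 1.14. Cpne5, Dlgap1 and Pde10a lie on chromosome 17 and are described with it.

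Genes with more deep gene-body bases held a site more often. Of 755 genes with under 10 kb of deep gene-body bases in the regions, 32 (4.24%) held one. This was so for 98 of 640 genes (15.3%) with 10 to 50 kb, for 101 of 251 (40.2%) with 50 to 200 kb and for 35 of 39 (89.7%) with 200 kb or more. The sites in these classes numbered 32, 106, 142 and 81, where the bases gave 23.0, 106, 150 and 83.4, so the class with the fewest bases was above its bases and the others were near or below theirs. A site inside several overlapping genes counts for each of them here.

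**Figure D2:**
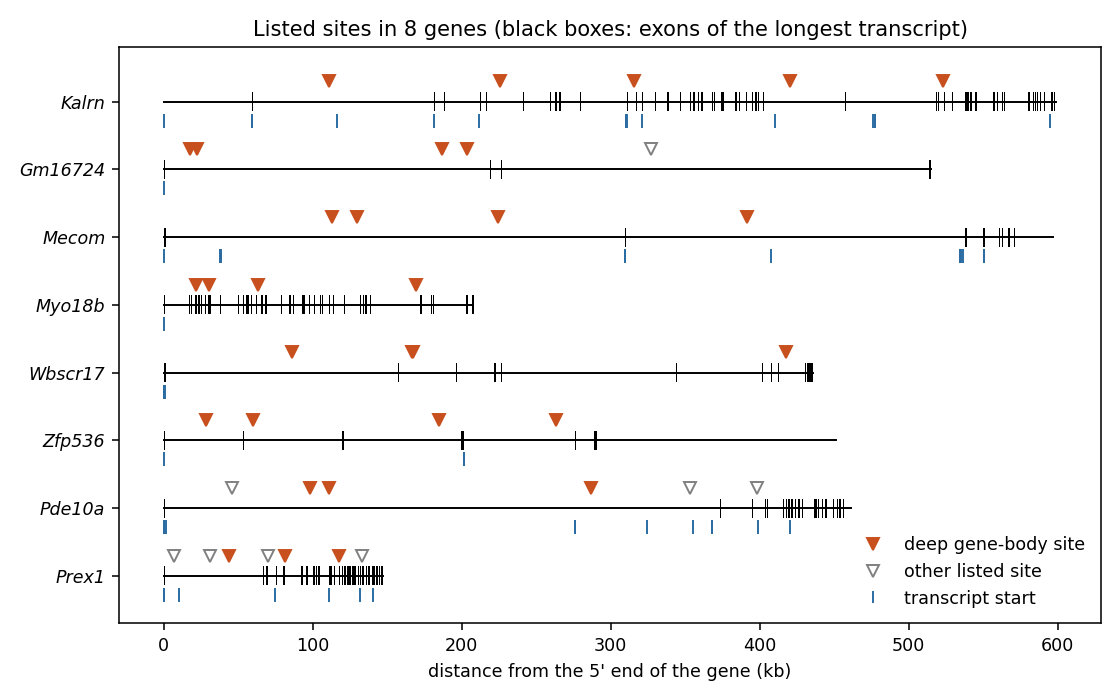
Listed sites in 8 genes, drawn from the 5′ end of each gene (horizontal axis, kb). Filled triangles are deep gene-body sites, open triangles are other listed sites, black boxes are exons of the longest transcript and short lines under each gene are transcript starts; Kalrn has 5 filled triangles and Prex1 has 3 among 7.

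Gene groups were compared by the share of their genes that held a deep gene-body site. Of all 1685 genes with deep gene-body bases in the regions, 15.8% held one, and of the 1503 protein-coding genes among them 16.6% did. A gene with more deep gene-body bases holds a site more often, so the number of sites given by the bases stands beside each share. All protein-coding genes had a median of 13.3 kb of such bases.

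Values are given for 4 of the 6 groups examined, and they do not stand for the others. Among 19 ion channel genes, 6 (31.6%) held 10 sites where 10.3 were given, with 3 in Kcnmb2, 2 each in the calcium channel subunit gene Cacna2d3 and the glutamate receptor gene Grik4, and 1 each in Cacna1h, Cacna1s and Cacng2. Adhesion and guidance genes held 7 sites where 6.28 were given, in 4 of 14 genes (28.6%), namely 3 in Plxna4, 2 in the cadherin gene Cdh22 and 1 each in Cntn2 and Sema5b. Cyclic nucleotide phosphodiesterases held 5 where 4.75 were given, in 2 of 4 genes, with 3 in Pde10a and 2 in Pde8b. Of the number given, 3 came from Pde10a and could not differ from its count, because it holds all the deep gene-body bases of its region. Pde8b was given 1.52. Of the 36 annotated genes on the pluripotency list, 1 had deep gene-body bases in the regions, Lin28a, which encodes an RNA-binding protein, and its bases gave 0.0282 sites, too few for its count of 0 to say anything.

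Most of the sites were intronic, as were most of the bases. The middle lay in an intron for 320 of 351 sites (91.2%, 95% Wilson interval 87.7 to 93.7%), against 93.1% of the deep gene-body bases of the regions taken every 100 bp. The host gene, the longest gene holding the site, was protein-coding for 337 sites (96.0%, against 95.7% of bases) and had a median length of 114.02 kb. The nearest transcript start belonged to the host gene for 238 sites (67.8%). Of the 326 sites in an intron of the longest transcript, 81 (24.8%) lay in the first intron, 63 (19.3%) in the second and 38 (11.7%) in the last, where the bases gave 25.95, 17.2 and 10.7%. The introns holding a site had a median length of 23.4 kb, against 24.8 kb for the bases.

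The sites lay at a median of 16.1 kb from the nearest transcript start, with the 25th and 75th percentiles at 8.82 and 35.2 kb, against a median of 17.6 kb for the bases. This value follows from the 5 kb limit, and was 12.2 kb with a limit of 2500 bp and 25.7 kb with a limit of 10000 bp. Between 5 and 10 kb from a start lay 104 sites (29.6%, against 26.9% of bases), and at 100 kb or more lay 19 (5.41%, against 6.55%). The farthest was a site in intron 2 of Auts2, at chr5:132579275-132579294 and 345.946 kb from any start, and its 20-bp sequence occurred 20 times in the reference. A second Auts2 site lay 281.578 kb from a start, in intron 4. The next were a pair of sites in intron 2 of Clstn2 at 260.832 and 245.144 kb and a site in Fars2, which encodes the mitochondrial phenylalanyl-tRNA synthetase, at 222.656 kb. The 20-bp sequence of the Clstn2 site at 260.832 kb occurred 2 times in the reference. Cut into 4 equal lengths from its 5′ end, the host gene held 67, 92, 100 and 92 sites in turn (19.1, 26.2, 28.5 and 26.2%), where the bases gave 19.4, 27.0, 27.1 and 26.5%.

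**Figure D3:**
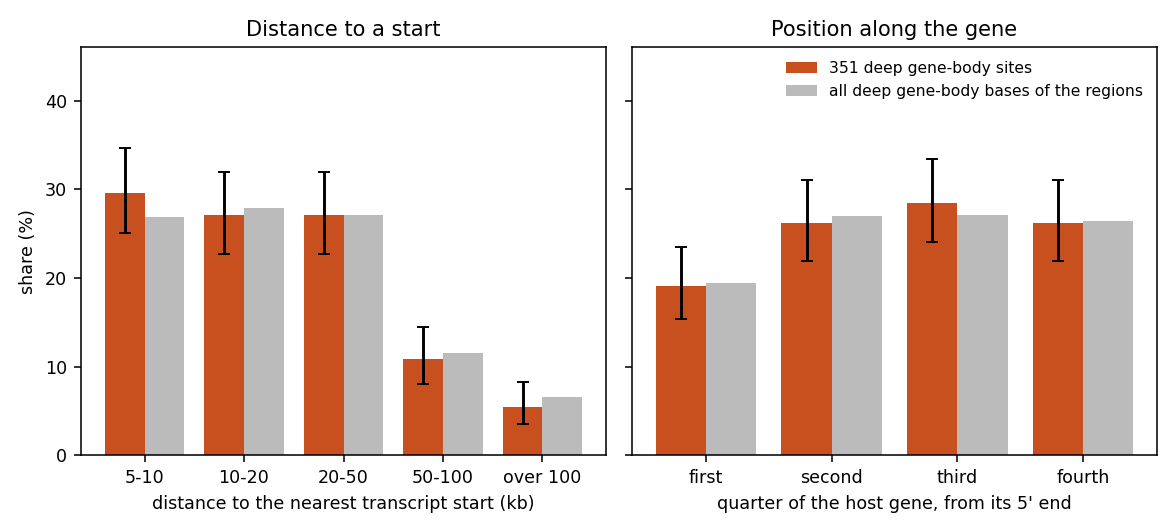
Share of the 351 deep gene-body sites (coloured bars, with 95% Wilson intervals) and of all deep gene-body bases of the regions (grey bars) by distance to the nearest transcript start in kb (left) and by position along the host gene in 4 equal lengths (right), in percent. The interval of the sites holds the share of the bases in every class, such as 29.6 against 26.9% at 5 to 10 kb.

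Exons were touched by 34 of the 351 sites (9.69%). The middle lay in a coding exon for 13 sites (3.70%, against 3.02% of bases), in an untranslated exon for 13 (3.70%, against 3.12%) and in an exon of a transcript with no coding annotation for 5 (1.42%, against 0.796%). In order of position, the first 10 sites that touched a coding exon lay in Pik3c2b (chr1:134983509-134983528), the ethanolamine kinase gene Etnk2 (chr1:135273567-135273586), the secreted phospholipase gene Pla2g5 (chr4:138356417-138356437), Myo18b (chr5:113303449-113303468) and the presynaptic protein gene Rimbp2 (chr5:129276109-129276128). Further along were Grip2, whose protein binds glutamate receptors (chr6:91725401-91725511), Tdrd12 (chr7:36275129-36275148), Dpysl4 (chr7:146286797-146286816), the co-chaperone gene Sgta (chr10:80513962-80513981) and the tight junction gene Tjp3 (chr10:80746230-80746249). In Tdrd12 and Tjp3 the middle itself was intronic.

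Deep gene-body sites of the same gene lay at a wide range of distances from each other, up to 311.572 kb. Other listed sites were left out of the pairs, and the spacing that the bases would give was not worked out. The 93 pairs of neighbouring deep gene-body sites within a gene lay a median of 43.8 kb apart, and 1 pair was closer than 1 kb, 16 were closer than 10 kb and 49 closer than 50 kb. The closest pair was in intron 2 of Wbscr17, at chr5:131616501-131616522 and chr5:131616972-131616993, with 449 bp between the sites. The next closest pairs were 2.07 kb apart in Cacna2d3, 3.09 kb in Aacs (acetoacetyl-CoA synthetase) and 3.47 kb in Atp2b2.

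On chromosome 17, 26 of 57 sites (45.6%, 95% Wilson interval 33.4 to 58.4%) lay deep in gene bodies, where 42.6% of the bases of its 10 regions did so. On the other chromosomes it was 325 of 952 sites (34.1%, interval 31.2 to 37.2%), where 36.8% of the bases did so. The difference between these shares was not tested, and the authors called regions on chromosome 17 with other limits. The 26 sites lay in 19 genes, 13 on each side of Pou5f1 (chr17:35642982-35647721). A single one was within 1 Mb of the start of Pou5f1, 9 lay at 1 to 10 Mb, 1 at 10 to 20 Mb and 15 at over 20 Mb, with a median of 20.7 Mb.

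The nearest site lay in intron 1 of Sfta2, a surfactant-associated gene, at chr17:35747912-35747931 and 104.939 kb from the start of Pou5f1. The farthest lay 37.2 Mb away in intron 1 of Alk, a receptor tyrosine kinase gene. On the side of lower coordinates, Pde10a, a phosphodiesterase gene for cAMP and cGMP, held 3 sites in its first intron, 26.8, 26.8 and 26.6 Mb from Pou5f1. Its bases also gave 3, a number fixed by the method because Pde10a holds all the deep gene-body bases of its region. That region had 3 deep gene-body sites of 7, where its bases gave 5.41. The T-type calcium channel gene Cacna1h, Ergic1, A930001N09Rik and Ggnbp1 each held 1, of which that in Ergic1 lay in an untranslated exon. Closer to Pou5f1, Fkbp5, which encodes a co-chaperone of steroid receptors, held 2 at 7.09 and 7.03 Mb, and Mapk14, the gene of the kinase p38alpha, held 1 at 6.78 Mb. Cpne5, of the calcium-binding copines, held 3 within 81.248 kb, where its bases gave 2.40.

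On the side of higher coordinates the sites fell into a few stretches. Chaf1a, a subunit of the chromatin assembly factor CAF-1, Tnfaip8l1, D17Wsu104e and Kdm4b, a histone H3 demethylase gene, each held 1, between 20.6 and 20.9 Mb from Pou5f1. Dlgap1, the gene of a postsynaptic scaffold protein, held 3 at 35.4 to 35.5 Mb, where its bases gave 1.64, and 1 of them also lay in Gm16952. Gm16724 held 4, all in its first intron, where its bases gave 5.36. Of these, 2 also lay in the gene Gm16627 and 2 in Myom1, a gene of the muscle sarcomere, so they cannot be assigned to Gm16724 alone. With protein-coding genes alone, Gm16724 has no site by construction.

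**Figure D4:**
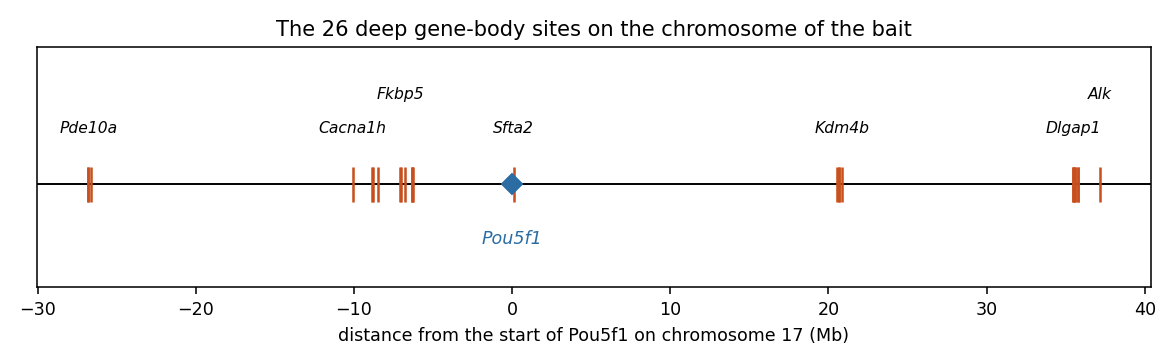
The 26 deep gene-body sites on chromosome 17 (vertical lines) by their distance from the start of Pou5f1 (diamond) in Mb, with some of their genes named. There are 13 on each side, and the nearest, in Sfta2, is 104.939 kb away.

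The sites lay in DNA richer in G+C than the gene bodies around them. In the 1 kb around the site, G+C content was 47.5% ± 5.46 (SD, n = 351 sites), against a mean of 45.9% for the deep gene-body bases of the regions. The sites were higher than these bases in 36 of 47 regions, with a median difference of 1.19 percentage points (exact two-sided sign test, p = 0.000346, adjusted over 4 tests p = 0.00138). With G+C content taken in 200 bp they were higher in 40 of 47 regions, by a median of 3.20 points (exact sign test, adjusted p = 4.28e-06). Against bases whose 20-bp sequence is unique in the reference, they were higher in 31 of 47 regions by a median of 0.88 points, and the difference did not pass the test (exact sign test, adjusted p = 0.0800). When the sites were limited in the same way, a comparison added after the data had been examined, they were higher in 32 of 46 regions by a median of 0.92 points (exact sign test, adjusted p = 0.0454).

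A difference of this kind was not particular to gene bodies. Sites within 5 kb of a start had 50.8% G+C ± 6.17 (SD, n = 330), against 48.4% for all such bases, and were higher in 36 of 44 regions by a median of 1.96 points (exact sign test, p = 2.54e-05, adjusted p = 0.000102). Distal intergenic sites had 47.1% ± 4.80 (SD, n = 328), against 45.2%, and were higher in 35 of 44 regions by a median of 1.29 points (exact sign test, p = 0.000106, adjusted p = 0.000212). The gain of deep gene-body sites over their bases was below that of sites near a start in 26 of 44 regions (exact sign test, p = 0.291, adjusted p = 0.388) and above that of distal sites in 24 of 44 (p = 0.652, adjusted p = 0.652, exact sign test). These 4 comparisons were added after the data had been examined.

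Compared directly, the deep gene-body sites were lower in G+C than sites near a start in 32 of 44 regions, with a median difference of -1.56 points (exact sign test, p = 0.00366, adjusted p = 0.00732). The bases of these kinds differed in the same direction, with 45.9% deep in gene bodies and 48.4% near a start. Set against their own bases, as above, the sites of these kinds did not pass the test for a difference. With G+C content taken in 200 bp it was 26 of 44 regions (exact sign test, adjusted p = 0.582) with a median difference of -1.41 points, so the size stayed about the same and the call did not. Against distal intergenic sites they were higher in 23 of 44 regions and lower in 21, with a median difference of 0.0051 points in a range of -6.70 to 7.07 (exact sign test, p = 0.880, adjusted p = 1).

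**Figure D5:**
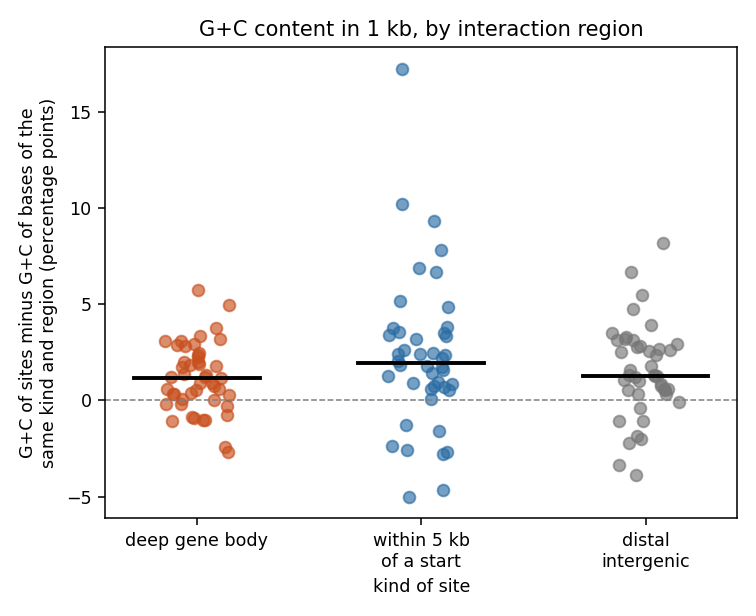
G+C content in 1 kb of the sites of a region minus that of all bases of the same kind in the region, in percentage points (vertical axis), for deep gene-body sites, sites within 5 kb of a start and distal intergenic sites. Each point is a region and the bar is the median, which is 1.19, 1.96 and 1.29 points in this order.

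The end tags of the deep gene-body sites were mostly unique in the reference. The authors kept uniquely aligned tags, so a high share was built in by that filter and is no trait of these sites. A site passed by either of its ends, but a base by a single 20-bp sequence. At least one of the 20-bp ends occurred once for 335 of 351 sites (95.4%, 95% Wilson interval 92.7 to 97.2%), against 83.5% of the deep gene-body bases of the regions. Among the 248 deep gene-body sites exactly 20 bp wide, the sequence occurred once for 235 (94.8%). For sites within 5 kb of a start, an end occurred once for 313 of 330 (94.8%, interval 91.9 to 96.8%), against 83.0% of their bases. For distal intergenic sites it was 301 of 328 (91.8%, interval 88.3 to 94.3%), against 76.4% of their bases. Of the 16 other deep gene-body sites, 7 had 2 copies of the rarer end, 4 had 3 to 10 and 5 had over 10. The site with the most copies lay in the histone demethylase gene Kdm2b, at chr5:123415283-123415302, with 46838 copies. The next were in Herc1 with 739, Slc6a6, a taurine transporter gene, with 85, Fuca2 with 47 and Auts2 with 20. The origin in the genome of all 16 sites without a unique end is uncertain.

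The sequences of the octamer and of Sox factors occurred around the sites about as often as in the gene bodies at large. Each of 6 motifs was searched on both strands in the 300 bp around the site and in windows of that length every 100 bp of the deep gene-body bases. The octamer ATGCAAAT, shown above in Pik3c2b, Kcnmb2, Zfp536, Rptor and Pde10a, was found around 1.42% of sites (interval 0.610 to 3.29%) and in 1.63% of windows. The Sox sequence ACAATGG was found around 15 sites (4.27%) and in 4.27% of windows. The Esrrb sequence TCAAGGTCA was found around 6 sites (1.71%, interval 0.786 to 3.68%) and in 0.908% of windows, and around 2 sites near a start and 3 distal sites. Of the 6, those in Auts2 and Clstn2 had no end that was unique in the reference. Kcnmb2 held both an octamer and an Esrrb sequence, but around different sites. The Klf4 sequence GGGTGTGG was found around 13 sites (3.70%, against 2.73% of windows). It was found around 4.85% of sites near a start and 3.35% of distal sites. AGGCCTCG, bound by Zfx, was found around 2 sites (0.570%, against 0.332% of windows). Near a start it was 0.606% of sites, and 0.610% of distal sites.

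The Tcfcp2l1 sequence, taken as CCAG, 6 bases of any kind and CCAG again, was found around 19 sites (5.41%, interval 3.49 to 8.30%) and in 3.35% of windows. It was found around 24 of 330 sites near a start (7.27%) and 9 of 328 distal sites (2.74%). These shares were not tested, and neighbouring sites are not independent of each other. The part of the higher G+C content of the sites in them was not tested either. The letters of a motif say nothing about binding of a factor in these cells.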

How the data were processed

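Sonication-based 4C-Seq data from 2 samples of E14 mouse ES cells were analysed. End tags of 20 bp were aligned by the authors to mm9 with BWA. They merged alignments with SAMtools, kept unique pairs with one end in the bait, merged tags within 100 bp, removed sites of a single read, and kept regions found in both replicates at an FDR of 5% (20% on chromosome 17). Tool versions are not given in the sources used here. The deposited list holds 3 columns, chromosome, start and end in mm9, pooled over both samples, with no count, score or replicate. Its depth is unknown, and no test uses spread between samples.

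Sites were set against the GENCODE vM1 annotation and sequence of NCBIM37 (mm9), with coordinates counted from 1. Regions were re-formed by joining sites at most 1 Mb apart (200 kb on chromosome 17). Bases were taken every 100 bp of the regions, G+C content in 1 kb around the middle, and copies of 20-bp ends were counted on both strands of all 211 reference sequences. The region was the unit of the exact two-sided sign tests, with Benjamini-Hochberg adjustment over 4 tests. For the comparison limited to sites with a unique end, the p-value was multiplied by 4 instead. Genes were tested with an exact one-sided binomial test, adjusted over 1685 genes. Intervals are 95% Wilson intervals. Introns were numbered on the longest transcript of the host gene. Named are all genes with at least 3 sites, genes of 4 lists (2 further lists are not reported here), genes on chromosome 17, those of the 5 sites farthest from a start and up to 10 with a site over an exon. Genes named beside the limit of the rule, for closely spaced sites and for repeated ends were chosen after their values were seen. The single regions described were chosen likewise. The members, gene lists and tests were chosen with earlier results of these data known. Alternatives changed the minimum distance, gene types, joining distance, G+C window, bases and the point used for a site. The scripts were tested on simulated data and used Python 3.11.15, numpy 2.4.6, scipy 1.17.1, numba 0.67.0 and matplotlib 3.10.9.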

Additional observations from a re-analysis of the deposited data

How the results depend on the processing

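The number of deep gene-body sites was 351, and 440, 247 and 411 with a minimum distance of 2500 bp, with 10000 bp and with protein-coding genes alone. Their median distance to a start moved from 16.1 kb to 12.2, 25.7 and 22.3 kb. The regions with more sites than their bases gave numbered 23 of 47, but 24 of 47 with protein-coding genes alone (exact sign test, p = 1) and 41 of 80 with regions joined at 500 kb (100 kb on chromosome 17; adjusted p = 0.911). The regions with higher G+C content than distal intergenic sites numbered 23 of 44, but, by the exact sign test, 20 of 41 at 10000 bp (p = 1) and 19 of 43 with G+C content in 200 bp (adjusted p = 0.723). None of these passed the test. Of the differences in G+C content that did, that from sites near a start no longer passed in 200 bp (26 of 44 regions, median -1.41 points, adjusted p = 0.582), nor did that from gene-body bases with unique bases (31 of 47 regions, adjusted p = 0.0800, exact sign tests). Limiting the sites too, chosen after the data were examined, gave 32 of 46 regions (exact sign test, adjusted p = 0.0454 by multiplying the p-value by 4). These results, the number of sites, the shares of sites in introns and with unique ends and the gene test were set against their alternatives. In 40 alternative values, some given above, the direction and side of the threshold were kept or, without a test, the value stayed near that reported. The rule for near was wide and took 247 sites as near 351. The gene test called 0 genes under each alternative. At an unadjusted p under 0.05 it gave 30 of 1685 genes, but 46 genes at 2500 bp and 18 at 10000 bp. Prex1 had 5, 1 and 5 sites at 2500 bp, at 10000 bp and with protein-coding genes alone, and at 10000 bp Kalrn had 3 and Atp2b2 had 0. No paired analysis was possible because the samples form 1 group and the list does not separate them, so replicates could not be left out either. The list's positions limit what can be said: a site read many times and a site read a few times count alike.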
